A study of Mus musculus with 36 samples.

Results

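The genes described here encode 7 transcription factors of the pancreatic acinar cell: *Ptf1a*, *Rbpjl*, *Bhlha15* (the gene for MIST1), *Nr5a2*, *Gata4*, *Gata6* and *Xbp1*. They were chosen by name, as regulators of acinar identity, and are 7 of the 21938 protein-coding genes of the GENCODE mouse annotation used here. Trimethylation of histone H3 on lysine 4 (K4me3) and on lysine 27 (K27me3) was profiled by ChIP-seq in whole pancreatic tissue from 12 mice, 3 of each of 4 genotypes, and each of the 24 libraries was available as a list of called peak positions. The genotypes were wildtype (WT, control), Mist1creERT/+EZH2[delta]SET (EZ, here *Ezh2*ΔSET), KR, which carries Mist1creERT with a further inducible allele, and KE, which carries that allele and EZH2[delta]SET together. All mice had received tamoxifen by gavage, were 2 to 4 months old, and were sampled 22 days later. Tamoxifen releases the Cre recombinase made from the *Mist1* locus of acinar cells, which removes the part of *Ezh2* encoding the catalytic SET domain in EZ and KE mice and recombines the further allele in KR and KE mice. Peak positions give no measure of either recombination, so neither was checked here. The tissue also holds duct, islet, vascular, stromal and immune cells that do not recombine, and in such bulk tissue fewer acinar cells and less mark per acinar cell cannot be told apart.

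One of the 7 genes is itself part of the mouse model. *Mist1* is *Bhlha15*, and creERT was inserted into its coding region, so *Ezh2*ΔSET, KR and KE mice each carried 1 disrupted *Bhlha15* allele. The control mice carry no creERT by their label, although the study drew controls both from C57BL/6 and from Mist1creERT animals. Peak calls do not separate the alleles, so at *Bhlha15* a comparison with control cannot be told apart from the loss of that allele.

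PTF1A is a basic helix-loop-helix protein that, with an E protein and an RBPJ-type subunit, forms the PTF1 complex on the promoters of digestive enzyme genes. RBPJL is the acinar form of that subunit and takes the place of RBPJ as acinar cells mature. BHLHA15 builds the secretory apparatus, XBP1 drives the unfolded protein response that a secretory cell depends on, NR5A2 is a nuclear receptor that works together with PTF1, and GATA4 and GATA6 are zinc finger factors of pancreatic development and acinar differentiation. K4me3 marks the promoters of transcribed genes and spreads into wide domains at many genes that define a cell type. K27me3 is written by Polycomb Repressive Complex 2, whose catalytic subunit is EZH2, and covers genes held silent, including the master regulators of other lineages.

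Promoter sequence was available from RefSeq (GRCm38.p6) for 5 of the 7 genes, in 6 entries, and not for *Gata4* or *Gata6*. The stretches just upstream of the RefSeq start are shown for 4 genes because K4me3 peaks overlapped them in every mouse and they differ widely in base composition. Each is written 5′ to 3′ on the strand of the gene, with E-boxes (CANNTG, the binding letters of basic helix-loop-helix factors, read on both strands) in capitals.
Ptf1a, chr2:19445413-19445662, plus strand: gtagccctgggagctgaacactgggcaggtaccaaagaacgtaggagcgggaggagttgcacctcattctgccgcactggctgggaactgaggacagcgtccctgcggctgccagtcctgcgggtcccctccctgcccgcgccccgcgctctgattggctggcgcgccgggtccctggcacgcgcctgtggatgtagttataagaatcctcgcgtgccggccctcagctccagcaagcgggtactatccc
Rbpjl, chr2:164402944-164403140, plus strand: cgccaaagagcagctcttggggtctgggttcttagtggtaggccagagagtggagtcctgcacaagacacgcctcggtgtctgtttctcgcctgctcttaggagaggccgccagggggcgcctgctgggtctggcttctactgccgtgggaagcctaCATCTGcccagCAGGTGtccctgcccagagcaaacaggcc
Bhlha15, chr5:144190036-144190285, plus strand: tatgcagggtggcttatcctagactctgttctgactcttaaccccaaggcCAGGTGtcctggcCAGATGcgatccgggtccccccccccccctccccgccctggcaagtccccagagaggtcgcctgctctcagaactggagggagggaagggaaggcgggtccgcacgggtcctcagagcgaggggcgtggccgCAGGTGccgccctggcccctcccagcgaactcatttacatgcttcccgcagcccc
Nr5a2, chr1:136960449-136960698, minus strand: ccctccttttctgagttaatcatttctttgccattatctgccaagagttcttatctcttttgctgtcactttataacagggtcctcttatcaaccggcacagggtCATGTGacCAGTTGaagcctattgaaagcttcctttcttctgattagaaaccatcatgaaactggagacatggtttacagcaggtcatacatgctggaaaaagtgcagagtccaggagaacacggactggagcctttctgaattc
Each of the 4 stretches was overlapped, wholly or in part, by a K4me3 peak in 12 of 12 mice. The *Ptf1a* and *Bhlha15* stretches were GC-rich, at 66.0% and 66.8%, against a median of 52.4% over 32841 promoters of 250 bases. By contrast, the *Nr5a2* stretch held 43.2% GC and a ratio of observed to expected CpG of 0.172, below the promoter median of 0.374, and carried K4me3 in the same 12 mice. The *Bhlha15* stretch held 3 E-boxes, those of *Rbpjl* and *Nr5a2* held 2 each, and that of *Ptf1a* held none, while 66.2% of all 250-base promoters held at least 1. TGGGAA, the core letters of RBPJ-type factors, was present in the stretches of *Ptf1a*, *Rbpjl* and *Xbp1* and in 21.6% of all promoters. Neither AAGGTCA (the core of NR5A2 sites, in 4.08% of promoters) nor ACGTG (the core of XBP1 sites, in 16.6%) was found in the 6 stretches, and neither was CATATG, an E-box form (3.47%). AGATAA, the core of GATA sites, was present in 9.99% of promoters, with 2 matches in the *Nr5a2* stretch and a match within 250 bases of the *Rbpjl* start but outside the stretch shown. TATAAA, the TATA box letters (12.4% of promoters), was found once, in the *Nr5a2* stretch. Each motif was read on both strands, and 1 of the 2 TGGGAA matches at *Xbp1* overlapped an E-box. These counts describe letters in a short window and not binding.

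K4me3 was called within 3 kb of a transcription start site (TSS) at 7 of 7 factor genes in every one of the 12 mice, where 56.9% of protein-coding genes had K4me3 in all 12. By genotype, the background share of genes called in all 3 mice was 58% in control, 60.8% in *Ezh2*ΔSET, 60% in KR and 59.9% in KE tissue. K27me3 was called within 3 kb of a TSS in all 3 mice of a genotype at 0 of 7 factor genes in every genotype, where the background shares were 5.78%, 7.39%, 8.33% and 9.94% in the same order. Over the gene body the count was again 0 of 7, against 7.3%, 9.16%, 10.1% and 11.6% of genes. K4me3 in 12 mice with no K27me3 at a TSS outside the control mouse WT2 was found at 6 of 7 factor genes, all but *Gata4*, and at 50.2% of genes.

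The mark was wide at all 7 genes. A K4me3 domain was taken as all peaks separated by gaps of at most 1 kb, and the widest domain touching the window around a TSS was measured, a measure chosen after the peak lists had been seen. The median width over 12 mice ranged from 7.67 kb at *Rbpjl* to 17.8 kb at *Gata4*, with a median of 12.4 kb over the 7 genes, against 2.36 kb over the 12478 genes with K4me3 in all mice. Ranked within each mouse among all genes with K4me3, 82 of the 84 values (7 genes in 12 mice) were at or above the 90th percentile, 76 at or above the 95th and 54 at or above the 99th. Genes with several TSSs have wider windows (6001 bp at *Ptf1a* with 1 TSS and 22528 bp at *Nr5a2* with 6) and so more chances to meet a wide domain.

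**Figure D1:**
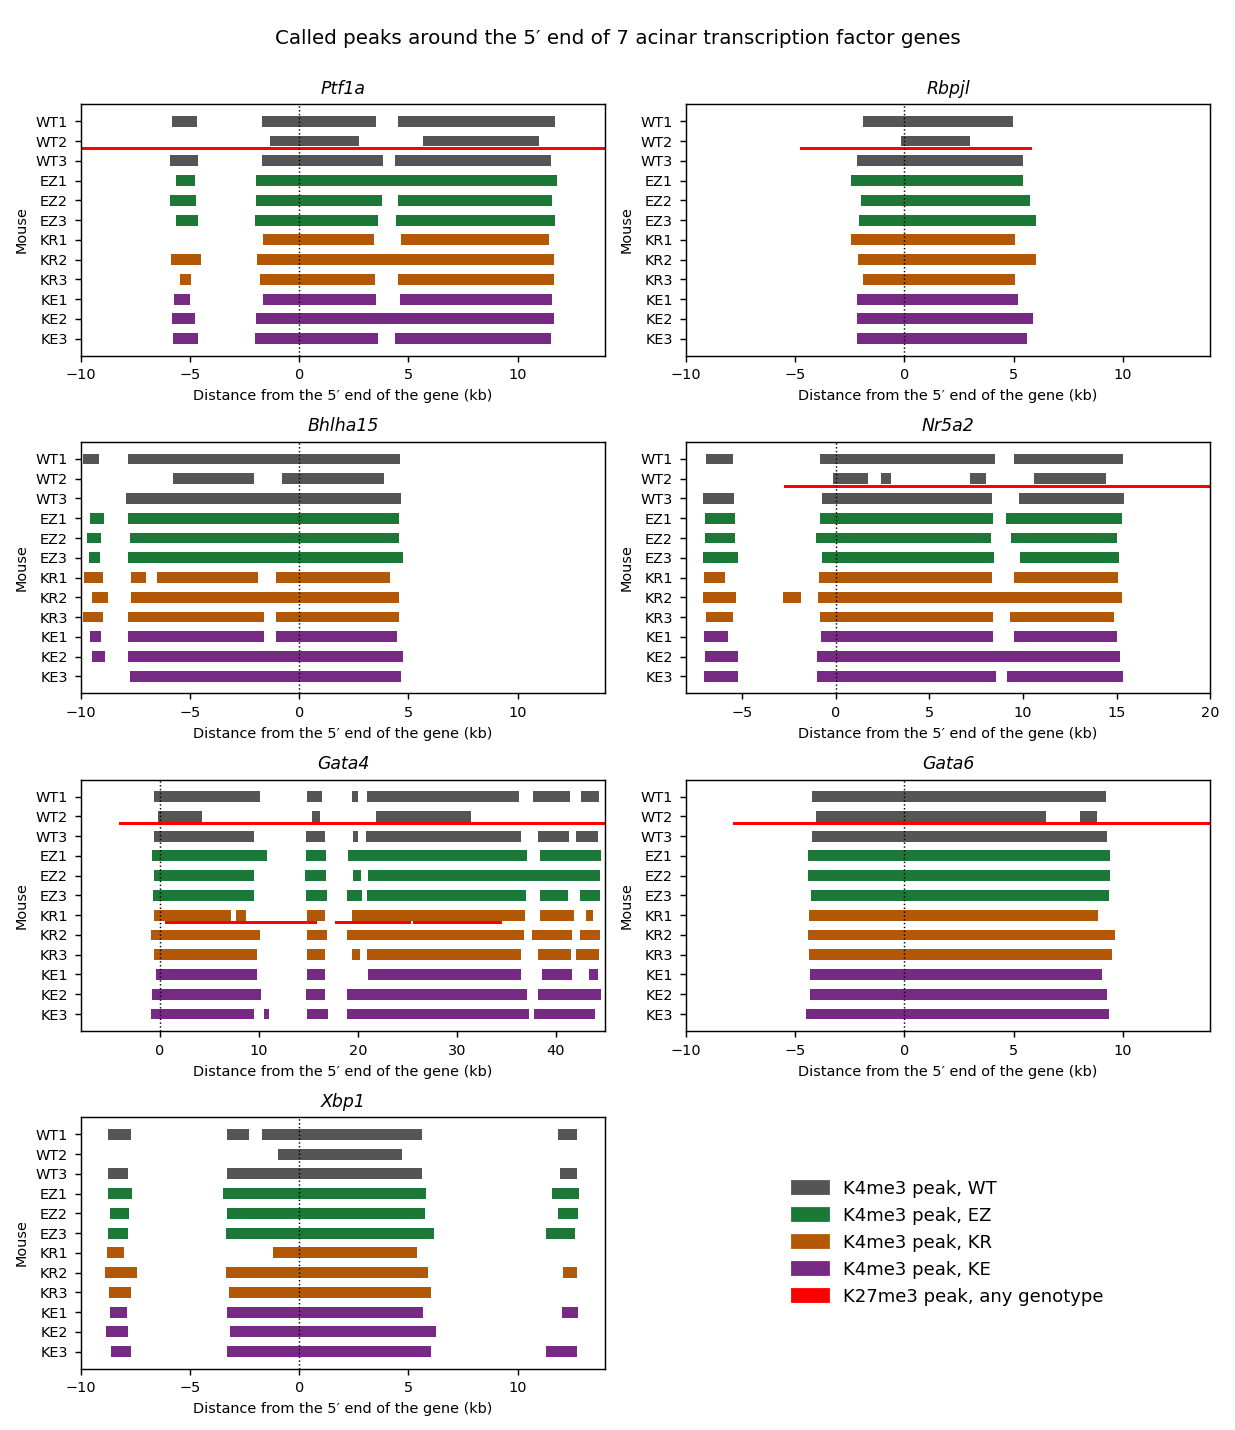
K4me3 peaks (bars coloured by genotype) and K27me3 peaks (red) in each of 12 mice, plotted by distance in kb from the 5′ end of each gene in the direction of transcription. K4me3 edges are similar across most mice, with shorter domains in WT2, whereas K27me3 is seen only in WT2 at 5 genes and in KR1 at *Gata4*.

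*Ptf1a* is a gene of 1839 bp on the plus strand (mm10, chr2:19445663-19447501), and its K4me3 ran far beyond it. In 11 or more mice 1 block extended from 1.64 kb upstream to 3.44 kb downstream of the 5′ end, and a second lay between 4.66 and 11.4 kb downstream, over the 2 starts (6.17 and 6.81 kb) of the transcript 1810010K12Rik. An antisense transcript, Ptf1aos, starts within the first block, 1.01 kb downstream of the *Ptf1a* 5′ end, and the marks on the 2 strands cannot be told apart. The domain was 5.22, 4.08 and 13.2 kb wide in control, 13.8, 13.6 and 13.7 kb in *Ezh2*ΔSET, 5.08, 13.6 and 5.29 kb in KR, and 5.20, 13.6 and 13.6 kb in KE mice (replicates 1 to 3). These widths took 2 values, according to whether the gap between the blocks was over or under 1 kb: the blocks were joined in all 3 *Ezh2*ΔSET mice, in 1 control, 1 KR and 2 KE mice. The gap exceeded the limit by little in WT1 (1012 bp), KR3 (1025 bp) and KE1 (1066 bp), so this split rests on small differences in peak ends.

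*Rbpjl*, a gene of 12308 bp on the plus strand (chr2:164403141-164415448), had the lowest median width of the 7 over 12 mice, although *Ptf1a* was narrower in WT1, KR1, KR3 and KE1 and *Xbp1* in KR1. Widths were 6.86, 3.14 and 7.60 kb in control, 7.87, 7.74 and 8.12 kb in *Ezh2*ΔSET, 7.51, 8.15 and 6.96 kb in KR, and 7.33, 8.08 and 7.79 kb in KE mice. The lone narrow value was that of WT2, and in the other 11 mice the domain began 1.90 to 2.46 kb upstream and ended 4.95 to 6.04 kb downstream. Starts of *Matn4*, an extracellular matrix gene read from the opposite strand, lie within this domain, 1.47 to 2.02 kb downstream of the *Rbpjl* 5′ end, so the mark there cannot be assigned to one of the genes.

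At *Bhlha15* (4156 bp, plus strand, chr5:144190286-144194441) the mark covered the gene from end to end and reached far upstream in all mice but WT2. The domain measured 12.4, 4.66 and 12.6 kb in control, 12.4, 12.3 and 12.6 kb in *Ezh2*ΔSET, 11.9, 12.3 and 12.4 kb in KR, and 12.3, 12.6 and 12.4 kb in KE mice. Apart from WT2, where the promoter block was separate from the upstream block, the widths had an SD of 0.202 kb (n = 11 mice). Their upstream edge lay between -7.93 and -7.68 kb from the 5′ end, a spread of SD 0.0792 kb (n = 11). The 9 mice with a creERT allele, at 11.9 to 12.6 kb, and WT1 and WT3 overlapped in width.

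*Nr5a2* is a long gene (117878 bp, minus strand, chr1:136842571-136960448) with 6 annotated starts spread over 19.9 kb. All but the innermost lay directly under a K4me3 peak in 11 or 12 mice, a stricter count than a peak within 3 kb. The 2 widest of the K4me3 blocks present in 11 or more mice covered -0.714 to 8.32 kb and 9.82 to 14.9 kb from the 5′ end. The wider of them, or both where joined, measured 9.34, 3.86 and 9.05 kb in control, 16.1, 9.39 and 9.15 kb in *Ezh2*ΔSET, 9.24, 18.1 and 15.7 kb in KR, and 9.18, 16.2 and 16.3 kb in KE mice. The value of KR2 also takes in a small upstream peak, without which the joined blocks measured 16.2 kb. The blocks were joined in none of the 3 control mice, in 1 *Ezh2*ΔSET mouse, and in 2 KR and 2 KE mice, but several gaps lay close to the 1 kb limit, at 1001 bp in WT1, 1055 bp in EZ2 and 907 bp in KR3.

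*Gata4* (72771 bp, minus strand, chr14:63198922-63271692) had its widest K4me3 not at the 5′ end but inside the gene. In 11 or more mice a block of 15.3 kb ran from 21.0 to 36.3 kb downstream of the 5′ end, over 2 internal starts 26.4 kb from it, and another of 7.65 kb covered the 5′ end itself. The widest domain was 16.9, 9.68 and 16.9 kb in control, 18.2, 24.97 and 18.1 kb in *Ezh2*ΔSET, 17.5, 25.5 and 17.1 kb in KR, and 15.5, 18.2 and 25.1 kb in KE mice. The 3 widest values (EZ2, KR2 and KE3) arose where the next block downstream was joined to the internal one, in 1 mouse of each genotype other than control.

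*Gata6* (33572 bp, chromosome 18, plus strand) carried 1 uninterrupted block in 11 mice, from 4.24 kb upstream to 8.88 kb downstream. Its width was 13.5, 10.5 and 13.5 kb in control, 13.8, 13.8 and 13.6 kb in *Ezh2*ΔSET, 13.3, 14.1 and 13.9 kb in KR, and 13.4, 13.6 and 13.8 kb in KE mice. Without WT2 these values had an SD of 0.247 kb (n = 11). The divergent transcript 1010001N08Rik starts inside the block, at -0.577, 0.466 and 0.503 kb from the 5′ end.

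*Xbp1* (5235 bp, plus strand, chr11:5520659-5525893) was covered over its whole length in most mice. Widths were 8.96, 5.67 and 8.95 kb in control, 9.28, 9.05 and 9.53 kb in *Ezh2*ΔSET, 6.61, 9.23 and 9.27 kb in KR, and 8.98, 9.40 and 9.37 kb in KE mice. WT2 and KR1 were the 2 low values.

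**Figure D2:**
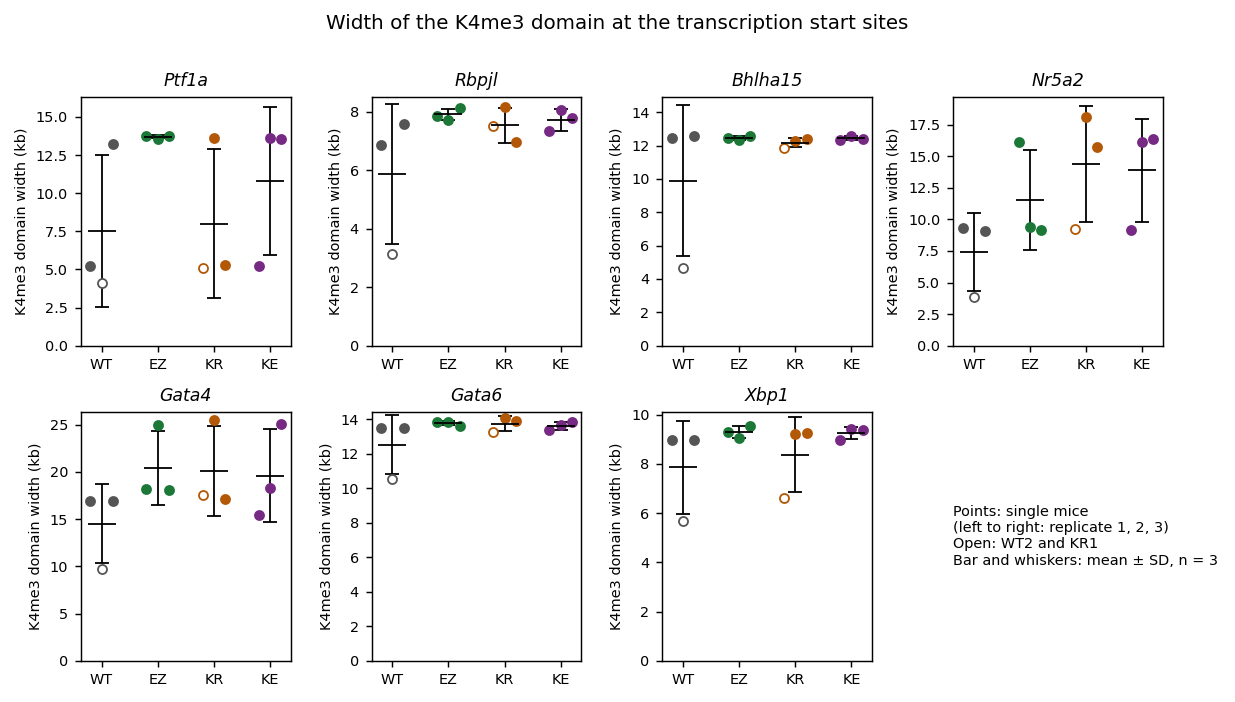
Width in kb of the widest K4me3 domain touching the TSS window of each gene (y axis) in the 4 genotypes (x axis), with points for single mice and mean ± SD (n = 3). WT2 (open grey) is the lowest point at each gene, and *Ptf1a*, *Nr5a2* and *Gata4* fall into separate levels of width as neighbouring blocks are joined or not.

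WT2 and KR1 stood apart before any comparison of genotypes. WT2 had the fewest peaks for both marks (17400 K4me3 and 21420 K27me3 peaks), and 11.7% of its autosomal K27me3 peaks overlapped its own K4me3 peaks, against 4.39% in KR1 and 0.693 to 2.57% in the other 10 mice. The same mice had K4me3 at lymphocyte genes: the B cell markers (*Cd79a*, *Ms4a1*) were called 2 of 2 in WT2 and in KR1 and 0 of 2 elsewhere, and the T cell markers (*Cd3e*, *Cd3g*, *Cd4*, *Cd8a*) 2 of 4 in WT2, 4 of 4 in KR1, 1 of 4 in KE1 and 0 of 4 elsewhere. Summed domain width at 14 acinar product genes was 70.1 kb in WT2 and 98.2 kb in KR1, against 129 to 147 kb in the others. Acinar markers were called 6 of 6 in all 12 mice, islet markers 1 or 2 of 6, duct markers 3 to 5 of 5, macrophage markers 2 of 5 in WT2 and KR1 and 1 of 5 in the others, fibroblast and stellate markers 2 to 4 of 5 and endothelial markers 1 to 3 of 4. The part of these features in the values of WT2 and KR1 was not tested, and results that rest on these mice are given with and without them.

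K27me3 at the acinar factors was confined, within the TSS windows and gene bodies of the 12 mice, to these 2 libraries. In WT2 it covered 6001 bp at *Ptf1a*, the whole TSS window. It covered 8.87 kb at *Rbpjl* and 34.8 kb at *Nr5a2* in that mouse. At *Gata4* it covered 56.5 kb in WT2 and 32.1 kb in KR1, and at *Gata6* 17.6 kb in WT2. All of these genes kept their K4me3 calls in the same mice. *Bhlha15* and *Xbp1* had no K27me3 over the gene or TSS window in any mouse, WT2 included. Thus 5 of 7 factor genes were called in WT2, where K27me3 was found at a TSS of 24.6% of all genes and of 20.5% of genes with K4me3. The count was 1 of 7 in KR1, against 15.4% of all genes, and 0 of 7 in the other 10 mice, against 10.6 to 15.8%. The counts in these 11 mice thus lie near the background, and that of WT2 lies above its own.

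**Figure D3:**
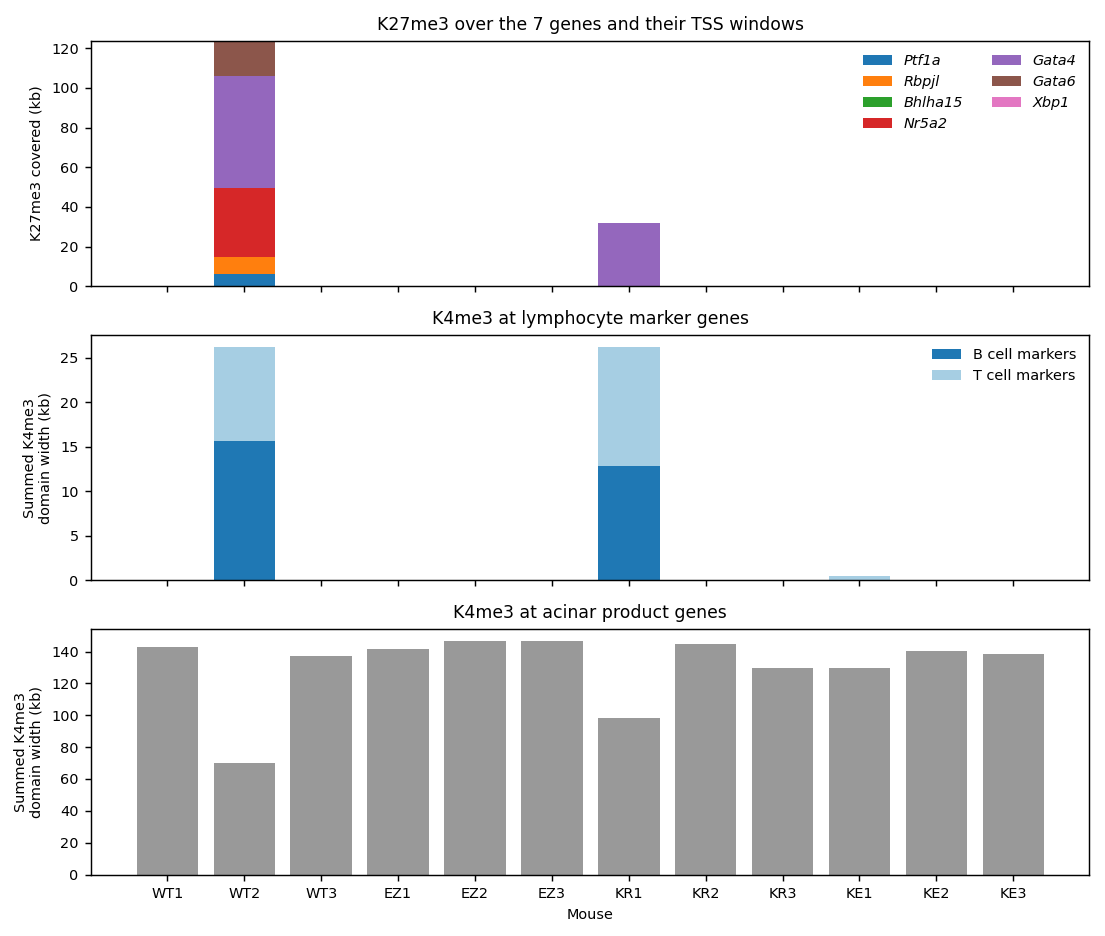
Per mouse (x axis), K27me3 covered length in kb over the 7 genes and their TSS windows (top), summed K4me3 domain width in kb at B and T cell marker genes (middle) and at 14 acinar product genes (bottom). WT2 and KR1 have the K27me3, the lymphocyte marker K4me3 and the narrowest acinar product domains, and KE1 shows a low bar for 1 T cell marker.

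In most mice the nearest K27me3 was distant. At *Ptf1a* the gap between the gene or its TSS window and the closest K27me3 peak had a median of 212 kb over the 11 mice without WT2, and KR1 was the closest at 13.3 kb. Among the factor genes this median was lowest at *Rbpjl* (80.9 kb) and highest at *Xbp1* (1266 kb). When the window was widened to 100 kb upstream of a TSS, the window the study used for this mark, 6 of 7 factor genes were called in WT2 and 4 of 7 in KR1, where 54.8% and 41.1% of genes were. These included *Bhlha15*, where K27me3 covered 6.251 kb of this window in WT2 and 5.001 kb in KR1, and *Ptf1a*, where it covered 29.1 and 6.59 kb. *Rbpjl* was the 1 factor gene called in any of the other 10 mice. At *Rbpjl* K27me3 covered 0, 54.6 and 0 kb in control, 0, 6.318 and 5.001 kb in *Ezh2*ΔSET, 26.6, 9.80 and 11.1 kb in KR, and 7.97, 0 and 0.350 kb in KE mice. All 3 KR mice were thus called at *Rbpjl*, 1 factor gene of 7, where 28% of protein-coding genes were called in these mice by the same rule. No factor gene was called in all 3 mice of another genotype, where the background was 20% in control, 24.5% in *Ezh2*ΔSET and 27.5% in KE mice.

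The question of the study's design, whether loss of EZH2 activity changes these marks, was put to the length covered by peaks. For K4me3 this was the number of bases covered within 3 kb of any TSS, a value capped by the size of the window. For each factor, EZ mice were compared with control and KE mice with KR, and the mean of both differences was taken, by a two-sided exact permutation test over 400 arrangements (smallest possible p 0.005).

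With deletion of the *Ezh2* SET domain, K4me3 covered length was higher at 7 of 7 factor genes, with a median difference of 0.350 kb. This is the mean of both differences: *Ezh2*ΔSET mice were higher than control in mean at 7 of 7 genes, and at 6 of 7 without WT2, where the difference at *Bhlha15* was 0 and the others were 0.142 to 0.530 kb, while KE minus KR was -0.173 kb at *Gata4*, -0.117 kb at *Gata6* and 0.0070 kb at *Rbpjl*. Over all genes tested, 9711 of 14633 were higher, with a median of 59.0 bp, so the direction was that of most genes. *Ptf1a* alone of the 7 passed p 0.05, where 5.81% of genes passed as higher and 0.868% as lower. *Ptf1a* coverage was 4.70, 4.08 and 4.71 kb in control and 4.997, 5.001 and 5.026 kb in *Ezh2*ΔSET mice, then 4.64, 4.96 and 4.80 kb in KR and 4.67, 4.99 and 5.04 kb in KE mice. *Ezh2*ΔSET values lay above all control values, and those of KE mice overlapped those of KR. The difference was 0.306 kb, or 6.59% (exact permutation p = 0.025, Benjamini-Hochberg adjusted p = 0.606 over all genes). It was 0.163 kb without WT2 and KR1 (exact permutation p = 0.13) and 0.184 kb after division by the library mean (exact permutation p = 0.09). A window of 5 kb also ended the call (0.746 kb, exact permutation p = 0.21). Leaving out any 1 of EZ1, EZ2, EZ3, KR1, KR3, KE2 or KE3 also ended this unadjusted call, with differences of 0.266 to 0.309 kb and exact permutation p values of 0.055 to 0.095.

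The remaining genes gave differences of 0.231 kb at *Gata4* to 1.48 kb at *Nr5a2* with exact permutation p values of 0.2 to 0.52. Without WT2 and KR1 the sign turned at 3 of them: the differences were then -0.147 kb at *Nr5a2*, -0.0176 kb at *Gata4* and -0.103 kb at *Gata6*. In the same 10 mice the differences were smaller at *Rbpjl* (0.153 kb, against 0.405 kb in 12 mice), *Bhlha15* (0.0514 against 0.350 kb) and *Xbp1* (0.152 against 0.736 kb). No gene of the 14633 passed an adjusted p of 0.05 by this test, against 977 at an unadjusted p under 0.05. At *Xbp1* and *Bhlha15* the measure met its ceiling, since all 6 mice with deleted *Ezh2* had the full 7265 bp window of *Xbp1* covered, as did 3 of 3 *Ezh2*ΔSET mice for the 6001 bp window of *Bhlha15*.

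**Figure D4:**
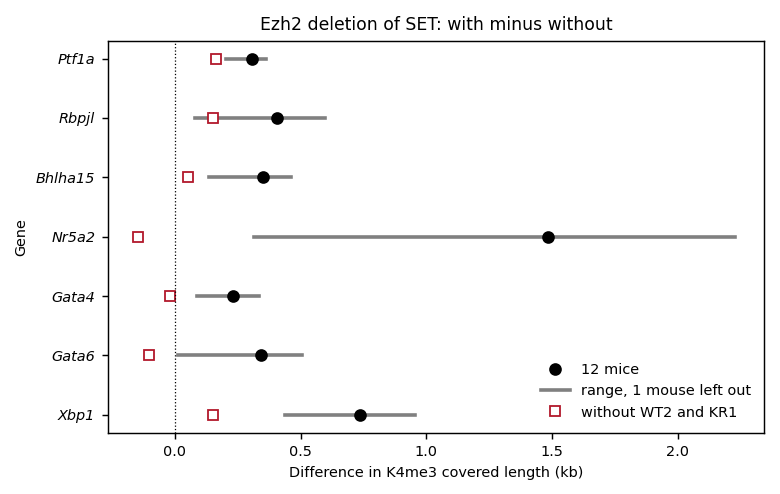
Difference in K4me3 covered length in kb (x axis) at each factor gene (y axis) for deletion of the *Ezh2* SET domain. Black points use 12 mice, grey lines span the values with 1 mouse left out, and open squares leave out WT2 and KR1, which brings the differences at *Nr5a2*, *Gata4* and *Gata6* below 0.

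*Ezh2*ΔSET and control, and KE and KR, were also compared as 3 mice against 3, where an exact two-sided test cannot fall below p = 0.1 and the order of the values is given instead. K4me3 covered length was higher in every *Ezh2*ΔSET than in every control mouse at *Ptf1a*, *Gata4* and *Gata6*, 3 of 7 genes (background 9.04%, with 2.1% below). By domain width it was 5 of 7, with *Rbpjl* and *Xbp1* in addition (background 8.89%, with 2.18% below). The *Gata6* values, for instance, were 12.3, 10.3 and 12.3 kb in control and 12.4, 12.4 and 12.3 kb in *Ezh2*ΔSET mice. The highest control value there was not that of WT2, so setting WT2 aside could not change this order. The lowest *Ezh2*ΔSET value at *Gata6* was 12.35 kb and the highest control value 12.26 kb. KE and KR values overlapped at 7 of 7 genes (background 5.85% above and 2.29% below). A test of whether the difference of KE from KR differed from that of *Ezh2*ΔSET from control gave permutation p values (400 arrangements) of 0.095 at *Gata4* and higher at the other 6 genes. Without WT2 and KR1, a setting chosen after the data were seen (100 arrangements, smallest possible p 0.01), *Gata6* alone of the 7 fell below 0.05, where the background was 2.09% of genes lower and 3.86% higher. There the difference of KE from KR, less that of *Ezh2*ΔSET from control, was -0.490 kb (permutation p = 0.01, Benjamini-Hochberg adjusted p = 0.496 over all genes), and *Gata4* was at p = 0.05.

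For K27me3, measured over the gene body and TSS windows, the 5 genes with any peak gave exact permutation p values between 0.5 and 1, which peaks in 1 or 2 mice could not bring below 0.05. Their peaks were in WT2 and KR1 alone, both with intact *Ezh2*, so the direction was set by these mice. With both mice left out no factor gene had any K27me3 left to compare.

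The calls and widths of the 7 factors were next set beside those of other genes of the pathway and the tissue. The digestive enzyme and secretory product genes that PTF1 and its partners serve had wide domains as well: 13 of 14 had K4me3 in 12 mice, with a median width of 9.61 kb, led by *Cpb1* (carboxypeptidase B) at 21.2 kb and *Pnliprp1* (a pancreatic lipase-related protein) at 13.8 kb. The gene of this list without K4me3 was *Syt8*, which encodes neither a digestive enzyme nor a secreted product. Partner factors and target genes of the 7 factors were all called (20 of 20 in 12 mice, where 56.9% of all genes were), at a median width of 4.12 kb. Wide domains in this list belonged to *Foxa2*, a forkhead pioneer factor (14.8 kb), and to the endoplasmic reticulum genes *Edem1* (12.03 kb), *Atf6* (8.95 kb) and *Hspa5* (8.81 kb). In contrast *Tcf3* and *Tcf12*, which encode the widely expressed E proteins of PTF1, had domains of 2.05 and 2.97 kb, and *Rbpj*, whose product RBPJL replaces, had one of 3.78 kb. Their median percentiles among marked genes were 39.6, 70.3 and 84.6.

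Several relatives of the factors that act in other lineages carried K27me3. Of 15 family members, 5 had K4me3 in all 12 mice and 7 had K27me3 at a TSS in 10 or more mice, where 56.9% and 6.61% of all genes did. The GATA family was mixed: K27me3 was called in 12 mice at *Gata3*, a factor of T cells and other lineages with a K4me3 domain of 1.49 kb, in 7 at *Gata2*, in 2 at *Gata5* and in 0 at *Gata1*, beside 2 mice at *Gata4* and 1 at *Gata6*. Among basic helix-loop-helix genes related to *Ptf1a* and *Bhlha15*, *Neurod1*, *Ferd3l*, *Twist1* and *Tcf21* had K27me3 in 12 mice and *Atoh1* and *Neurog3* in 11, but *Bhlha9* in 4. The calls in 11 or 12 mice were present with and without the *Ezh2* deletion.

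Among 9 pancreatic progenitor, duct and islet factors both patterns were present. *Pdx1*, *Sox9*, *Onecut1*, *Nkx2-2* and *Foxa3* had K4me3 in 12 mice, with domains of 6.32 kb (*Foxa3*) to 13.8 kb (*Nkx2-2*) and K27me3 in 2 mice or fewer. Endocrine factors differed among themselves: *Nkx6-1*, *Pax6* and *Isl1* had K27me3 in 12 mice and *Mnx1* in 10, but *Nkx2-2*, also an endocrine factor, in 1. K4me3 was narrow at *Nkx6-1*, *Pax6* and *Isl1*, with median widths of 0.975 kb (*Isl1*) to 1.57 kb (*Pax6*), and *Mnx1* had a K4me3 peak in 6 of 12 mice.

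**Figure D5:**
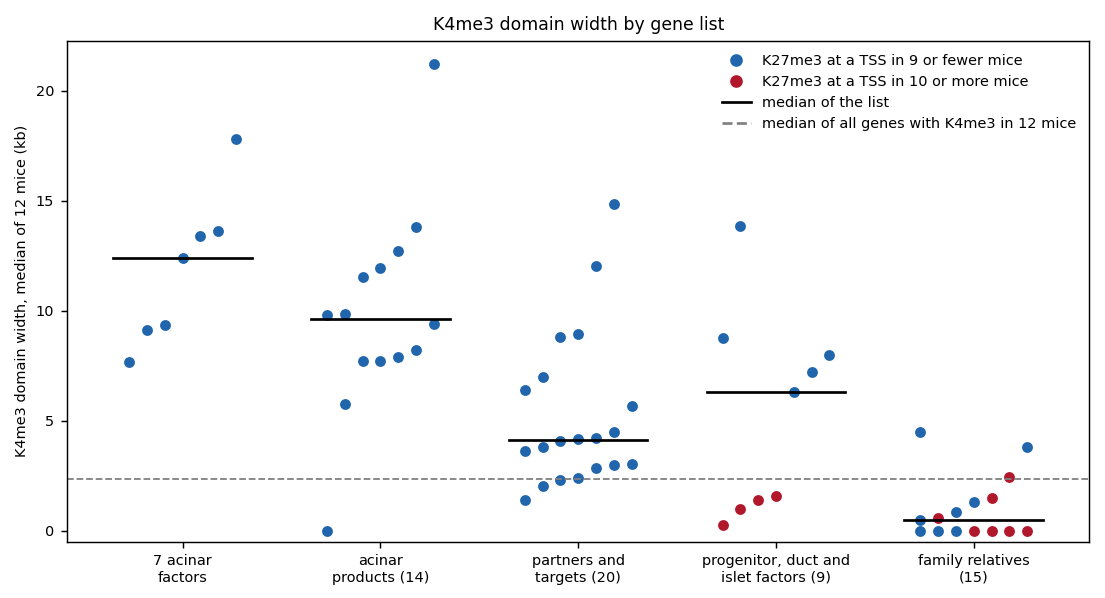
Median K4me3 domain width over 12 mice in kb (y axis) for the 7 acinar factors and 4 lists of related genes (x axis), with a point per gene, a bar at the median of each list and a dashed line at 2.36 kb, the median of all genes with K4me3 in 12 mice. Mice without a peak count as 0, and genes with K27me3 in 10 or more mice (red) have K4me3 domains of at most 2.46 kb, and each of the 7 factors lies above 7 kb.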

How the data were processed

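H3K4me3 and H3K27me3 ChIP-seq of whole pancreatic tissue from 12 mice (3 per genotype) was used. Per the labels and the study's methods, the authors checked reads with FastQC, aligned them with bowtie2 to mm10 and called peaks for each mouse against local background and input with HOMER findPeaks in histone mode. Versions are not given in the sources used here. The deposited BED files hold peak positions, and the deposited score column is constant, so heights and read depth are unknown, and libraries cannot be scaled by depth. Input libraries were not analysed here.

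Peaks were intersected with GENCODE vM21 genes (mm10) in Python 3.11.15 with numpy 2.4.6, with a minimum overlap of 1 bp and a window of 3 kb on either side of every TSS. Covered length was compared by exact permutation tests within the mice of the EZ and WT and of the KE and KR genotypes, with Benjamini-Hochberg adjustment over 14633 genes for K4me3 and 8429 for K27me3. With 3 mice per genotype, each p value is the share of arrangements of these mice whose difference was at least as large as that seen. The contrast script was checked on simulated data. Promoter sequences were RefSeq windows of GRCm38.p6, cut to the bases before the start and outside annotated exons.

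The 7 genes, all named, and the comparison lists were chosen with earlier results of these data known. In the lists, genes differing from the rest of their list were named, and *Amy2b* was not matched. The further allele of KR and KE mice, comparisons of it, and 3 list genes are not reported here. Alternatives were other TSS windows, minimum widths, equal peak numbers (17399 K4me3 and 21419 K27me3 peaks per library), scaling by the library mean, replicate number as a block and leaving out each mouse. Domain width and leaving out WT2 with KR1 were added after the data were seen.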

Additional observations from a re-analysis of the deposited data

How the results depend on the processing

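The number of factor genes called for K4me3 in all 3 mice stayed at 7 in every genotype under the alternatives tried, and that for K27me3 at 0 except with the window reaching 100 kb upstream, where it was 1 in KR mice (*Rbpjl*). The K27me3 minimum of 5 kb removed no peak. The count of genes past p 0.05 for K4me3 with deleted *Ezh2* (1, *Ptf1a*) was 0 with a window of 1 kb, after division by the library mean, by domain width, and without WT2 and KR1, and ranged from 0 to 1 with 1 mouse left out. The 1 kb window was no test of *Ptf1a*, whose difference there was 0. By domain width *Ptf1a* was 4.49 kb wider, with an exact permutation p of 0.05 at the threshold itself. With a window of 5 kb its difference rose to 0.746 kb, from 0.306 kb, and missed the threshold (exact permutation p = 0.21), while *Xbp1* passed it (1.25 kb higher, exact permutation p = 0.045). With 1 mouse left out fewer arrangements exist.

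Signs turned in some differences of K4me3 covered length, given here as kb with minus without the *Ezh2* deletion. *Gata4* gave -0.0469 after division by the library mean, and without WT2 and KR1 *Nr5a2*, *Gata4* and *Gata6* gave -0.147, -0.0176 and -0.103. The cause was not tested. Of 49 single-gene K4me3 values under alternatives set beforehand, 43 kept their direction and side of the threshold and 2 were 0 (*Ptf1a* with a window of 1 kb and *Gata6* with the 5′ end alone). This count is a weak measure of stability, since *Ptf1a* alone had passed the threshold and many of the values could hardly move. The replicate block leaves every difference unchanged, and minimum widths and equal peak numbers left most of them as they were. The K27me3 values rest on 1 or 2 mice and could not show stability.

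Replicate numbers showed no common pairing of the mice. Deviations of same-numbered mice correlated between -0.711 and 0.543 for K4me3 replicate 1 and between -0.694 and 0.327 for replicate 2. Those of K4me3 replicate 3 were all positive, at 0.0590 to 0.495, and whether these mice were paired was not tested. Correlations for K27me3 took both signs at every number. With replicate number as a block the K4me3 count with deleted *Ezh2* stayed at 1 (*Ptf1a*, exact sign-flip permutation p = 0.0312, the smallest possible), and no other call changed.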

Other observations

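Genes whose K4me3 covered length followed each factor most closely across mice were ranked by Pearson's r over 12478 genes with K4me3 in all 12 mice, leaving out those within 100 kb of the factor gene. The closest were *Angptl8* for *Ptf1a* (r = 0.976), *Itpkc* for *Rbpjl* (0.977), *Clock* for *Bhlha15* (0.990), *Slc16a12* for *Nr5a2* (0.974), BC067074 for *Gata4* (0.947), *Mat2b* for *Gata6* (0.984) and *Plekhf1* for *Xbp1* (0.969). The 12 points share their libraries, and WT2 had the lowest covered length at each factor gene. Ranked again over the 11 mice without WT2, a choice made after the data were seen, *Clock* was second for *Bhlha15* (r = 0.977), *Gnai3* was first for *Ptf1a* (0.959) and *Gstcd* first for *Xbp1* (0.970), while the 3 genes closest to *Rbpjl*, *Nr5a2*, *Gata6* and *Xbp1* were none of those found with 12 mice. *Bhlha15* and *Xbp1* covered lengths were at their ceiling in 8 and 9 of 12 mice, so that without WT2 their likeness rests on 3 and 2 mice below it. These are descriptions of peak lengths and carry no test.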
